A study of Mus musculus with 24 samples.

Results

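The nuclear genes that copy, package and transcribe mitochondrial DNA (mtDNA) were followed in the inguinal fat of mice fed methionine-restricted (MR) or control diets, beside the share of reads that came from the mtDNA itself. They were chosen by symbol, with earlier results of these data known, as Tfam, Tfb2m, Polrmt, Tfb1m, Polg, Twnk, Ssbp1, Nrf1 and Gabpa. All 9 had a row among the 16821 genes of the count table. Inguinal white adipose tissue (IWAT) came from 24 male C57BL6/J mice, 6 on each of 4 diets, and every mouse gave 1 library of 3′ mRNA reads. The elemental MR diet held elemental amino acids with 0.17% methionine, and the elemental control diet held them with 0.86% methionine. The oxidized casein MR diet held casein whose methionine had been lost by oxidation and then restored to the elemental MR level, and the casein control diet held casein with 0.86% methionine. Oxidized casein MR therefore differed from casein control in the oxidation of the protein as well as in methionine, and these cannot be told apart. Every mouse started its diet at 5 weeks of age and ate it for 12 weeks, and tissue was taken at an age of 4 months, 4 h after food was removed. The title, the tissue label and the protocol name IWAT, whereas the design text speaks of the liver, so tissue markers were read in each library. The 8 white adipocyte markers summed to between 20942 and 63534 CPM, a read count scaled to the size of its library, in all 24 libraries, and the 6 hepatocyte markers summed to between 59.8 and 9304 CPM.

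Mitochondria keep a small circular genome that encodes core subunits of the respiratory chain, rRNAs and tRNAs. Its RNA polymerase (Polrmt) starts transcription with the packaging factor Tfam and the initiation factor Tfb2m, and a primer made by the same polymerase starts replication, which needs the polymerase Polg, the helicase Twnk and the single-stranded DNA-binding protein Ssbp1. The nuclear transcription factors Nrf1 and Gabpa bind the promoters of many genes for mitochondrial proteins. In white fat, mitochondria become denser when thermogenic, brown-like adipocytes appear.

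The promoters of the 3 genes that passed a test below, Polrmt, Tfb2m and Gabpa, and of Tfam, the best known of the set, are printed because they can be searched for the recognition letters of the 2 transcription factors in the set. Each sequence is the RefSeq window of 300 bases, from 250 before to 50 after the annotated start, on the GRCm38.p6 build. Polrmt lies at chr10:79746532-79746831 on the minus strand, Tfb2m at chr1:179546227-179546526 on the minus strand, Gabpa at chr16:84834874-84835173 on the plus strand and Tfam at chr10:71237995-71238294 on the minus strand. Capitals mark matches on either strand to GCGCANGC, the NRF1 letters, or to CCGGAAG, the GABPA letters.
Polrmt: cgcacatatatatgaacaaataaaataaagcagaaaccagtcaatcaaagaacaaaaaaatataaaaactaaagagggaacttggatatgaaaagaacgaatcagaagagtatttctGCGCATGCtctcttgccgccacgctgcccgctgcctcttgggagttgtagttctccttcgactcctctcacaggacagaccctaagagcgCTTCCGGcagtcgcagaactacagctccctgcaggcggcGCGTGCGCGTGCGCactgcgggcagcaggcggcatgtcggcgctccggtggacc
Tfb2m: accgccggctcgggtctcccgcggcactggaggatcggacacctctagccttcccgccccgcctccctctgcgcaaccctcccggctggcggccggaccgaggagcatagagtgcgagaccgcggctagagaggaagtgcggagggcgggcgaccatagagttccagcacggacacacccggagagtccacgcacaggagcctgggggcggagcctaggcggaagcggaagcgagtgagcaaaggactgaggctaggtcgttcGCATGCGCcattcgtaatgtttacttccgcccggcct
Gabpa: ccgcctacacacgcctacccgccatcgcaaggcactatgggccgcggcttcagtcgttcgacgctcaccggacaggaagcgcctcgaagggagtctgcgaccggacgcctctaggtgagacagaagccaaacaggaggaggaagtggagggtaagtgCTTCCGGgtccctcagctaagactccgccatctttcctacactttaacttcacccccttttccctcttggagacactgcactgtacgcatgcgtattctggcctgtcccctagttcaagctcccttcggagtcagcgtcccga
Tfam: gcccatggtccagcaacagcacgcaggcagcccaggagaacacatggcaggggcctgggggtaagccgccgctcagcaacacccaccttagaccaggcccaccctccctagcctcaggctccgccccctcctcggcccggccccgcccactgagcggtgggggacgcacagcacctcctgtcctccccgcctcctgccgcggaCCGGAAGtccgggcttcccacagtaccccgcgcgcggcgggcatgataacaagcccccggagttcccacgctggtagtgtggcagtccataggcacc

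The Polrmt window held 3 NRF1 matches, of which 2 overlap near the start site, and 1 GABPA match. The Tfb2m window held 1 NRF1 match, and the Gabpa and Tfam windows held 1 GABPA match each. All 9 genes had a promoter entry, and a gene with 2 entries, as for Twnk and Nrf1, was counted once. The NRF1 letters were found for 2 of the 9 genes, against 11.2% of the 27025 genes with an entry and 21.0% of the 10972 of them that were tested. The GABPA letters were found for 6 of the 9 genes, against 9.93% of genes with an entry and 18.7% of those tested. Polrmt was the 1 gene with both, which 2.14% of genes with an entry and 4.63% of those tested have. A match describes letters in a window and was not tied to binding of either factor.

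The libraries held between 7468336 and 19868913 reads, and a member gene held between 15 and 576 reads in a library. Transcripts of a lymph node, read from B cell markers, were present in 15 libraries and nearly absent from 9, with 5 of 6 elemental MR, 4 of 6 elemental control, 2 of 6 oxidized casein MR and 4 of 6 casein control libraries holding them. The mean log2 CPM of the 8 B cell markers ran from 4.82 to 6.50 in the first set and from -0.72 to 2.63 in the second. Skeletal muscle markers were high in elemental MR mouse 2 and elemental control mouse 2, and albumin and its companions were high in elemental control mouse 6. In whole tissue, fewer cells of a type and less RNA per cell cannot be told apart.

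The share of reads from mtDNA was higher under both MR diets. Reads of 23 mt- genes were summed, of which 8 code for proteins and 2 for rRNAs. Over all libraries together mt-Nd4 held 11.8% of reads and mt-Cytb, the next, 3.96%, so the share weighs mt-Nd4 most. The protein genes mt-Co2, mt-Co3, mt-Atp6, mt-Atp8 and mt-Nd4l had no row in the count table, so neither the share nor the library totals hold their reads. The share was lowest at 29.5%, with a median of 32.1% and a highest value of 36.2%, in elemental MR mice, and 21.6%, 25.9% and 31.1% in elemental control mice. It was 22.6%, 27.3% and 35.8% in oxidized casein MR mice, and 15.1%, 18.0% and 24.2% in casein control mice. In each protein source 5 of 6 MR mice lay above all 6 controls, and the groups overlapped through 1 MR mouse. The means were 32.9% ± 2.73 in elemental MR and 26.2% ± 3.97 in elemental control mice (SD, n = 6 each), a difference of 6.66 percentage points (exact permutation test, 2-sided, p = 0.0108, adjusted over 6 comparisons 0.0162). They were 27.9% ± 4.36 in oxidized casein MR and 18.8% ± 3.61 in casein control mice, a difference of 9.10 points (exact p = 0.00433, adjusted 0.0130). Over both protein sources the MR mice were 7.88 points higher (exact p = 4.2e-05, adjusted 0.000253). The responses in the 2 protein sources differed by 2.44 points (permutation p = 0.544). That test permuted protein source within each methionine level. The shares themselves differed between protein sources, as given next, so its p is approximate and cannot decide whether the responses differ. Casein control minus elemental control mice gave -7.38 points (exact p = 0.0108, adjusted 0.0162). Oxidized casein MR minus elemental MR mice gave -4.94 points, which did not pass after adjustment (exact p = 0.0455, adjusted 0.0545) but did without elemental MR mouse 3 (-5.61 points, adjusted 0.0468) and without oxidized casein MR mouse 1 (-6.51 points, adjusted 0.0130). Without the muscle-rich and albumin-rich libraries the elemental MR difference was 5.78 points (exact p = 0.0635, adjusted 0.0762). Within the libraries with lymph node transcripts the elemental MR difference was 4.66 points (adjusted exact p = 0.143) and the oxidized casein MR difference 7.81 points (adjusted exact p = 0.160), where the exact test of the casein groups could not go below p = 0.0667. Within those without them they were 10.4 and 12.0 points, where the exact test could not go below p = 0.333 and 0.0667.

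**Figure D1:**
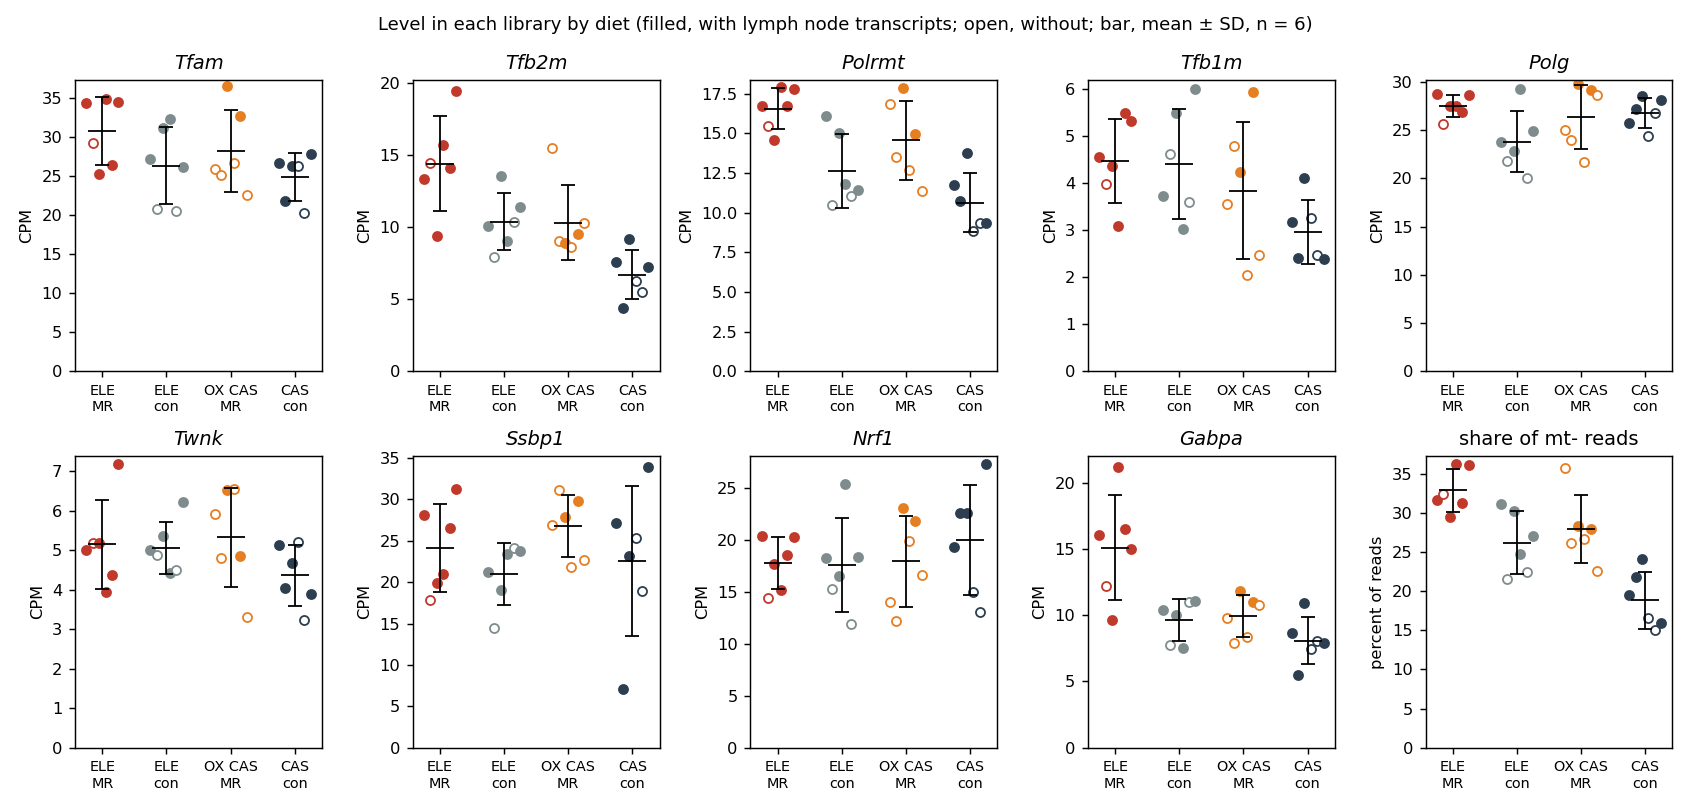
Level of each of the 9 genes (CPM) and share of mt- reads (percent) in each library, by diet, with mean ± SD of 6 mice; filled points are libraries with lymph node transcripts and open points those without. All genes but Polg and Nrf1, and the mt- share, have higher means in both MR groups than in their controls, with overlap between single mice. The casein control group has the lowest mean for the mt- share and for all genes but Polg, Ssbp1 and Nrf1.

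Of the transcription genes, Polrmt and Tfb2m rose under MR when both protein sources were combined, and Gabpa, the DNA-binding subunit of a nuclear factor, rose with them. The fold changes were 1.34 for Polrmt, 1.46 for Tfb2m and 1.39 for Gabpa. These 3 of 9 passed edgeR's quasi-likelihood test at an adjusted p of 0.05, all of them higher, where 6.99% of the 15176 genes tested passed in either direction and 5.23% passed as higher. The other 6 genes did not pass. Taken 1 protein source at a time, 0 of 9 passed in elemental MR mice, where 0.244% of all genes did, and 0 of 9 passed in oxidized casein MR mice, where 3.82% of all genes did and 3.35% passed as higher. At an unadjusted p of 0.05 the counts were 4 of 9 in elemental MR mice, against 10.2% of all genes, and 2 of 9 in oxidized casein MR mice, against 16.1%. DESeq2 gave an adjusted p to 7 of the 9 in elemental MR mice, all but Twnk and Tfb1m, and called 1, Gabpa, where it called 2.20% of the genes it adjusted. In oxidized casein MR mice it called 2 of 9, Polrmt and Tfb2m, against 6.82% of genes. The median log2 fold change of the 9 genes was 0.21 in elemental MR mice, where that of all genes was -0.02, and 0.28 in oxidized casein MR mice, where that of all genes was -0.06. Over both sources it was 0.20, against -0.07 for all genes.

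Polrmt, the mitochondrial RNA polymerase, had 14.6 CPM at the lowest, 16.8 at the median and 17.9 at the highest in elemental MR mice, against 10.5, 11.6 and 16.1 CPM in elemental control mice. It had 11.4, 14.2 and 17.9 CPM in oxidized casein MR mice, against 8.87, 10.0 and 13.7 CPM in casein control mice. All 6 MR mice of each protein source lay above the median of their controls, and 4 of 6 elemental MR and 3 of 6 oxidized casein MR mice lay above every control. Means were 16.6 ± 1.30 CPM in elemental MR and 12.7 ± 2.33 CPM in elemental control mice, and 14.6 ± 2.50 CPM in oxidized casein MR and 10.6 ± 1.86 CPM in casein control mice (SD, n = 6 each). The log2 fold change was 0.39 (SE 0.14, adjusted p = 0.274) in elemental MR mice, 0.45 (SE 0.14, adjusted p = 0.0649) in oxidized casein MR mice and 0.42 (SE 0.10, adjusted p = 0.00682) over both. The call in oxidized casein MR mice turned on single libraries, passing without casein control mouse 3 (0.54, adjusted p = 0.0257), oxidized casein MR mouse 6 (0.51, adjusted p = 0.0331), elemental control mouse 1 (0.45, adjusted p = 0.0478) or elemental control mouse 3 (0.47, adjusted p = 0.0484). It also passed with the mt- genes left out of the libraries (0.48, adjusted p = 0.0383) and in a fit with a lymph node term (0.54, adjusted p = 0.00637).

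Tfb2m, the factor that melts the promoter for the polymerase, had 9.41 CPM at the lowest, 14.3 at the median and 19.5 at the highest in elemental MR mice, against 7.92, 10.2 and 13.5 CPM in elemental control mice. It had 8.62, 9.31 and 15.5 CPM in oxidized casein MR mice, against 4.38, 6.76 and 9.21 CPM in casein control mice. In oxidized casein MR mice 5 libraries lay close together and mouse 1 stood above them, and in casein control mice 5 of 6 lay below every elemental control mouse. Means were 14.4 ± 3.28 CPM in elemental MR and 10.4 ± 1.95 CPM in elemental control mice, and 10.3 ± 2.62 CPM in oxidized casein MR and 6.70 ± 1.69 CPM in casein control mice. The log2 fold change was 0.47 (SE 0.19, adjusted p = 0.342) in elemental MR mice, 0.62 (SE 0.19, adjusted p = 0.0715) in oxidized casein MR mice and 0.54 (SE 0.13, adjusted p = 0.0116) over both. Leaving out casein control mouse 3 brought the casein value to 0.73 (adjusted p = 0.0337). The call over both sources was lost without the muscle-rich and albumin-rich libraries (0.50, adjusted p = 0.0617).

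Tfam, which bends and packages mtDNA and opens its promoters, had 25.3 CPM at the lowest, 31.8 at the median and 34.9 at the highest in elemental MR mice, against 20.5, 26.7 and 32.3 CPM in elemental control mice. It had 22.6, 26.3 and 36.6 CPM in oxidized casein MR mice, against 20.3, 26.3 and 27.9 CPM in casein control mice. The groups overlapped widely, and the medians of the casein groups were nearly equal. Means were 30.8 ± 4.35 CPM in elemental MR and 26.4 ± 4.99 CPM in elemental control mice, and 28.3 ± 5.27 CPM in oxidized casein MR and 24.9 ± 3.05 CPM in casein control mice. Over both sources the log2 fold change was 0.20 (SE 0.10, 95% interval 0.02 to 0.39, adjusted p = 0.245), which did not pass. In a fit with a lymph node term it was 0.23 (adjusted p = 0.0478).

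Tfb1m, a methyltransferase of the small-subunit rRNA, had means of 4.47 ± 0.89 CPM in elemental MR and 4.41 ± 1.17 CPM in elemental control mice, and 3.85 ± 1.46 CPM in oxidized casein MR and 2.97 ± 0.68 CPM in casein control mice. Its log2 fold change over both sources was 0.20 (SE 0.17, adjusted p = 0.591), and 0.11 without oxidized casein MR mouse 5. The last 500 bases of Tfb1m, where 3′ reads fall, overlap an exon of Tiam2 on the opposite strand, and the strand setting of the counting is not given in the sources used here, so its reads cannot be told apart from those of Tiam2.

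The 3 replication genes did not pass in any of the comparisons. Polg, the catalytic subunit of the mtDNA polymerase, had a narrow range of 25.7 to 28.7 CPM in elemental MR mice, against 20.1 to 29.3 CPM in elemental control mice. It had 21.7 to 29.8 CPM in oxidized casein MR mice, against 24.4 to 28.5 CPM in casein control mice. All 6 elemental MR mice lay above the elemental control median, yet elemental control mouse 4 was the highest of both groups, and the log2 fold change was 0.21 (SE 0.09, adjusted p = 0.424). In oxidized casein MR mice it was -0.02 (SE 0.09, adjusted p = 0.931), a sign that turned to 0.01 with the mt- genes left out. Twnk, the helicase, averaged 5.15 ± 1.12 CPM in elemental MR and 5.06 ± 0.66 CPM in elemental control mice, and 5.33 ± 1.26 CPM in oxidized casein MR and 4.37 ± 0.77 CPM in casein control mice. Over both sources it was at 0.15 on the log2 scale (SE 0.13, adjusted p = 0.570), and at 0.088 without elemental MR mouse 6. Ssbp1, which coats single-stranded mtDNA, averaged 24.1 ± 5.31 CPM in elemental MR and 21.0 ± 3.74 CPM in elemental control mice, and 26.7 ± 3.74 CPM in oxidized casein MR and 22.6 ± 9.04 CPM in casein control mice. The wide spread of the casein controls came with mouse 2 at 7.12 CPM, and the log2 fold change over both sources was 0.22 (SE 0.16, adjusted p = 0.513), against 0.13 without that mouse. The 95% interval of that change ran from -0.10 to 0.54.

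The 2 nuclear transcription factors differed in their values. Gabpa had 9.64 CPM at the lowest, 15.5 at the median and 21.2 at the highest in elemental MR mice, against 7.52, 10.2 and 11.1 CPM in elemental control mice. It had 7.87, 10.3 and 11.9 CPM in oxidized casein MR mice, against 5.47, 7.98 and 10.9 CPM in casein control mice. In elemental MR mice 5 of 6 lay above every control and mouse 3 lay among the controls. Its means were 15.1 ± 3.97 CPM in elemental MR and 9.61 ± 1.59 CPM in elemental control mice, and 9.93 ± 1.57 CPM in oxidized casein MR and 8.09 ± 1.77 CPM in casein control mice. The log2 fold change was 0.65 (SE 0.18, adjusted p = 0.128) in elemental MR mice, 0.29 (SE 0.18, adjusted p = 0.434) in oxidized casein MR mice and 0.47 (SE 0.12, adjusted p = 0.0194) over both. Without elemental MR mouse 3 the elemental value was 0.74 and passed (adjusted p = 0.0470). Nrf1 averaged 17.7 ± 2.50 CPM in elemental MR and 17.6 ± 4.50 CPM in elemental control mice, and 17.9 ± 4.35 CPM in oxidized casein MR and 20.0 ± 5.27 CPM in casein control mice. Its log2 fold change over both sources was -0.07 (SE 0.13, 95% interval -0.33 to 0.19, adjusted p = 0.815).

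**Figure D2:**
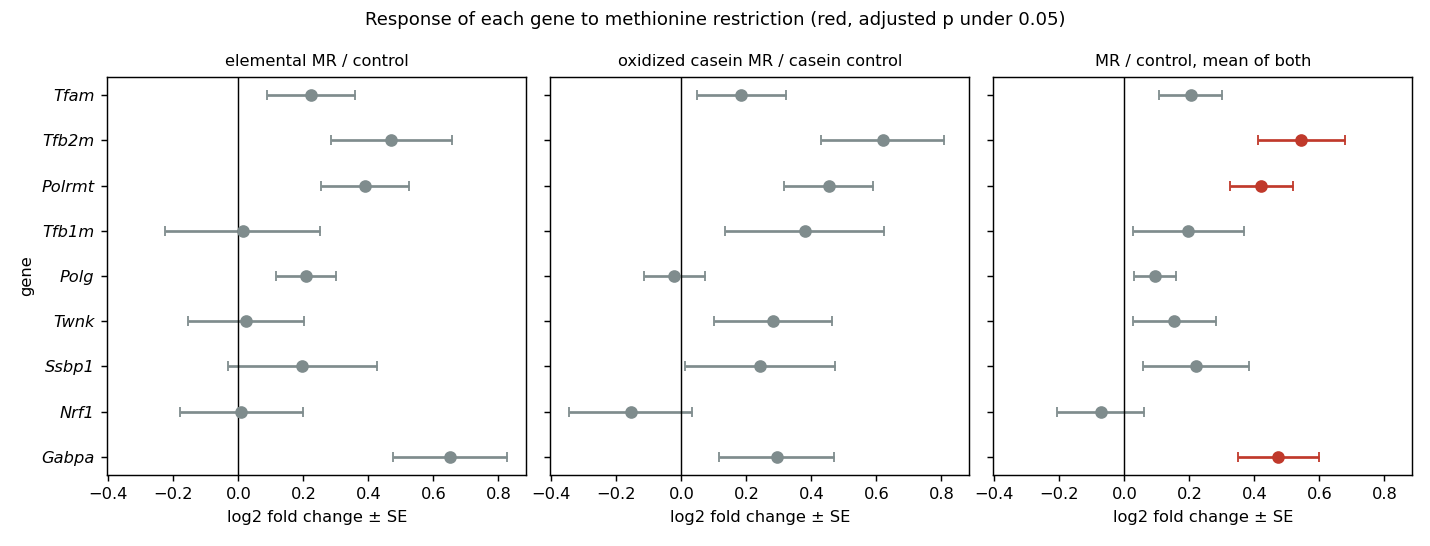
Log2 fold change of each gene (± SE, edgeR, 6 mice per diet) in elemental MR over elemental control, oxidized casein MR over casein control, and the mean of both; red points passed an adjusted p of 0.05. Only Tfb2m (0.54), Polrmt (0.42) and Gabpa (0.47) are red, in the mean of both sources, and Nrf1 (-0.07) is the 1 gene below 0 there.

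The 3 calls over both sources held on leaving out each of the 24 libraries in turn, with adjusted p between 0.00267 and 0.0164 for Polrmt, between 0.00557 and 0.0316 for Tfb2m and between 0.00508 and 0.0383 for Gabpa. They held in a fit with a lymph node term. The call of Tfb2m was lost without the muscle-rich and albumin-rich libraries. None of the 9 genes passed when libraries were split by lymph node transcripts. Over both sources 344 of 15644 genes passed with these transcripts and 320 of 15820 without them, so 0 of 9 is near the share over all genes. Within the 15 libraries with lymph node transcripts the log2 fold changes were 0.41 for Polrmt (adjusted p = 0.0867), 0.37 for Tfb2m (adjusted p = 0.334) and 0.57 for Gabpa (adjusted p = 0.0916). Within the 9 libraries without them they were 0.61 for Polrmt (adjusted p = 0.0969), 0.83 for Tfb2m (adjusted p = 0.0885) and 0.37 for Gabpa (adjusted p = 0.425).

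A difference in the response to MR between the protein sources was not detected, with 0 of 9 genes and 0 of all genes passing edgeR's test of it. At an unadjusted p of 0.05 the counts were 0 of 9 and 506 genes, which is 3.33%, and DESeq2 called 0 of 9 and 2 genes. The lowest p of the 9 was that of Polg (0.0913), with a difference in log2 fold change of -0.23 (95% interval -0.49 to 0.03). The intervals were wide, as for Gabpa, from -0.85 to 0.13, and Tfb2m, from -0.37 to 0.67.

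Among the controls, Tfb2m and Tfb1m had lower values on casein than on elemental amino acids, without passing. Between casein control and elemental control mice 0 of 9 passed, where 0.659% of all genes did. At an unadjusted p of 0.05 the counts were 2 of 9 and 12.6% of all genes. The log2 fold change was -0.63 (SE 0.19, adjusted p = 0.118) for Tfb2m and -0.57 (SE 0.24, adjusted p = 0.318) for Tfb1m. Polrmt was at -0.25 (SE 0.14, adjusted p = 0.483) and Tfam at -0.08 (SE 0.14, adjusted p = 0.916). Between oxidized casein MR and elemental MR mice 0 of 9 and 0 of all genes passed. At an unadjusted p of 0.05 the counts were 2 of 9 and 6.98% of all genes, and DESeq2 called 0 of the 7 that it gave an adjusted p (not Twnk and Tfb1m) and 11 genes. The 2 with the lower unadjusted p were Gabpa at -0.60 (SE 0.18, adjusted p = 0.636) and Tfb2m at -0.48 (SE 0.19, adjusted p = 0.664). In the 4 comparisons of diets made here the groups of 6 overlapped for all 9 genes, where 0.824% of all genes did not overlap between elemental MR and control, 2.69% between oxidized casein MR and casein control, 0.929% between the controls and 0.428% between the MR groups. These comparisons share groups of mice with the MR comparisons above.

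Polrmt followed the mt- share from mouse to mouse within diets. For each library, log2 CPM over the reads that are not mt- and the mt- share were centred on their diet means, so that only differences among mice of the same diet remained. Over 24 libraries Pearson's r was 0.87 and Spearman's rho 0.89 for Polrmt (permutation within diets, p = 1e-05, the smallest that the 100000 resamples can give, adjusted over 9 genes 9e-05). Without the 2 libraries farthest from the median share, casein control mice 5 and 6, r was 0.85. In the 15 libraries that held lymph node transcripts r was 0.84 (permutation p = 0.00093, adjusted 0.00837) and within the 9 without them it was 0.95 (exact permutation p = 0.0625, adjusted 0.562). For Tfb2m r was 0.59 (permutation p = 0.00569, adjusted 0.0256) and rho 0.53 (permutation p = 0.0135, adjusted 0.0590), so that the first passed and the second did not. Its r was 0.62 without the same 2 libraries, 0.47 in the 15 with lymph node transcripts (permutation p = 0.158) and 0.79 in the 9 without them (exact permutation p = 0.188). The other 7 genes did not pass, with r of 0.44 for Tfam (adjusted permutation p = 0.148), 0.41 for Twnk, 0.31 for Gabpa, 0.23 for Tfb1m, 0.16 for Nrf1, 0.09 for Polg and -0.06 for Ssbp1. Whether the relation of Polrmt differs from that of the other genes was not tested.

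**Figure D3:**
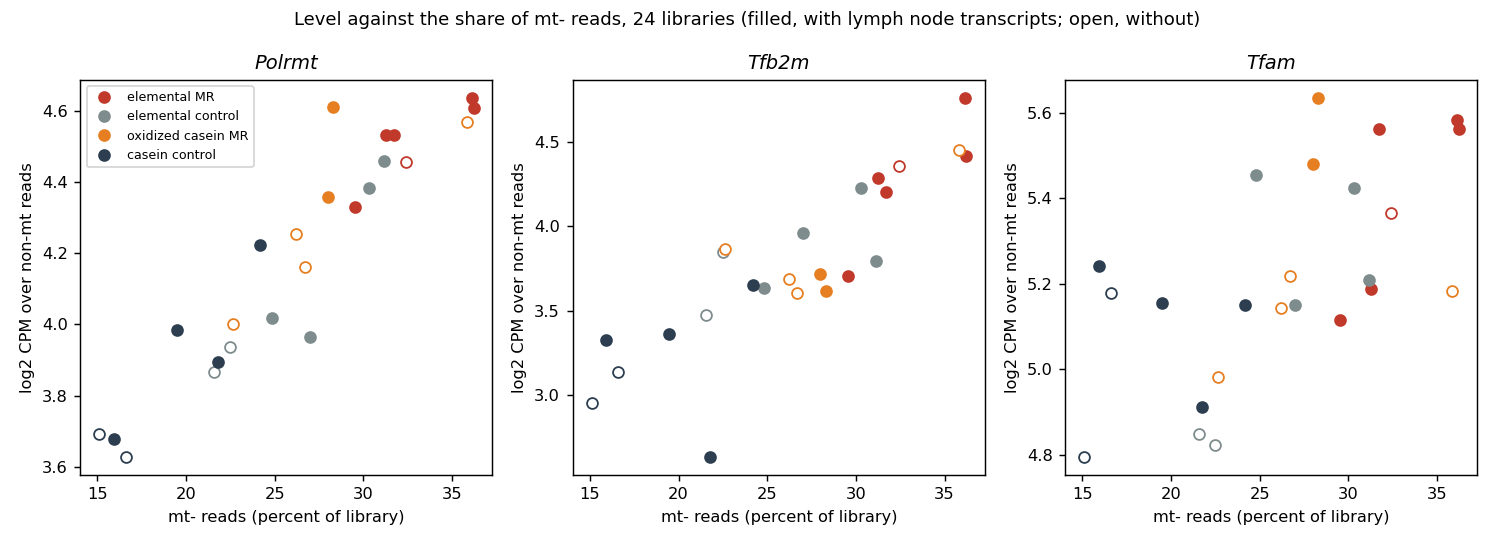
Log2 CPM of Polrmt, Tfb2m and Tfam over reads that are not mt- (vertical axes) against the share of mt- reads in percent (horizontal axes), 1 point per library, coloured by diet, filled with and open without lymph node transcripts. The Polrmt points rise along the share, those of Tfam scatter more widely, and the values before centring still hold the differences between diets; within diets r was 0.87 for Polrmt, 0.59 for Tfb2m and 0.44 for Tfam.

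Brown adipocyte markers moved with the same values. Of the 6 markers, 5 rose over both protein sources (Ucp1, Cidea, Elovl3, Cox8b and Cox7a1), where 5.23% of all genes passed as higher. Dio2 did not pass, none of the markers was at 0 in every library, and their median log2 fold change was 1.50. Their summed level ran from 2897 to 5737 CPM in elemental MR mice, against 222 to 3365 CPM in elemental control mice, and from 738 to 3938 CPM in oxidized casein MR mice, against 89.3 to 1190 CPM in casein control mice. Within diets, their mean log2 CPM was related to the mt- share with r = 0.86 and rho = 0.91 (permutation p = 1e-05, adjusted over 10 relations 1e-04 and 5e-05) and to Polrmt with r = 0.84 and rho = 0.88 (permutation p = 2e-05 and 1e-05, adjusted 1e-04 and 5e-05). Without the 2 libraries farthest from the median marker level, r was 0.86 and 0.84. None of the other 8 genes passed, the nearest being Tfam with r = 0.51 (permutation p = 0.018, adjusted 0.06). These relations to the brown adipocyte markers were added after the data were seen. The part of brown-like adipocytes in the levels of Polrmt was not tested. Of the other marker lists, 0 of 8 B cell, 0 of 8 T cell, 0 of 8 skeletal muscle, 0 of 6 hepatocyte and 0 of 6 proliferation markers passed over both sources, and of 8 white adipocyte markers 2 were higher and 1, Lep, was lower. Of the 15176 genes tested, 267 passed as lower over both sources. Macrophage markers had 2 of 6 lower (Cd68 and C1qa), with sums of 196 to 701 CPM in elemental MR, 430 to 750 CPM in elemental control, 279 to 696 CPM in oxidized casein MR and 499 to 801 CPM in casein control mice. Adipose progenitor markers had 2 of 6 lower (Cd34 and Col3a1), with sums of 682 to 1107 CPM in elemental MR, 1006 to 3169 CPM in elemental control, 783 to 1826 CPM in oxidized casein MR and 727 to 2791 CPM in casein control mice.

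The genes around the 9 in the pathway were read from 4 lists: the mt- genes, mtDNA replication and nucleotide supply, mitochondrial transcription and RNA processing, and regulators of mitochondrial biogenesis. These lists too were chosen with earlier results of these data known. In elemental MR mice alone none of their genes passed. Over both sources, 9 of the 10 mt- genes rose, with a median log2 fold change of 0.74, and in oxidized casein MR mice 6 of 10 rose, where 5.23% and 3.35% of all genes passed as higher. mt-Nd1, a complex I subunit, had 32300 CPM at the lowest, 41196 at the median and 47464 at the highest in elemental MR mice, against 16574, 23758 and 35468 CPM in elemental control mice. It had 19967, 26983 and 44628 CPM in oxidized casein MR mice, against 9851, 14103 and 20266 CPM in casein control mice. Its log2 fold change over both sources was 0.83 (SE 0.15, adjusted p = 0.00130). mt-Nd6, the 1 protein gene of the light strand, rose by 0.94 on the log2 scale (SE 0.23, adjusted p = 0.0132). It held 0.00212% of all reads. As the strand setting of the counting is not given, its reads cannot be told apart from those of the opposite strand. mt-Rnr1, the small rRNA, did not pass (0.68, adjusted p = 0.0663). mt-Nd3, also of complex I, passed with 1.08 (adjusted p = 0.0467), a call that was lost in 19 of the 24 fits that left out a library, with adjusted p of up to 0.0905.

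Of the genes for mtDNA replication and nucleotide supply, 8 of 25 rose over both sources and none fell, and 4 of 25 rose in oxidized casein MR mice. Of all genes, 5.23% passed as higher over both sources and 3.35% in oxidized casein MR mice. Over both sources the median log2 fold change of the list was 0.09, against -0.07 for all genes, and 17 of 25 values were positive. The largest changes were of Sucla2 and Suclg1, subunits of succinyl-CoA ligase, an enzyme of the TCA cycle that is bound to mitochondrial nucleotide supply. Sucla2 averaged 329 ± 47.2 CPM in elemental MR and 197 ± 68.6 CPM in elemental control mice, and 251 ± 61.5 CPM in oxidized casein MR and 127 ± 31.7 CPM in casein control mice. Over both, the log2 fold change was 0.86 (SE 0.14, adjusted p = 0.00074), and that of Suclg1 was 0.75 (SE 0.17, adjusted p = 0.00661). Slc25a33, a pyrimidine nucleotide carrier, rose by 0.57 (SE 0.15, adjusted p = 0.0170), and Mgme1, the nuclease that trims mtDNA ends, rose by 0.36 (SE 0.08, adjusted p = 0.00480). The others that rose were Atad3a, Lonp1, Mfn2 and Opa1, of which Lonp1 is a matrix protease and Mfn2 and Opa1 fuse mitochondrial membranes.

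Mitochondrial transcription and RNA processing genes had small positive changes in most of the list. Of 29 tested, 7 rose over both sources, none fell and 28 were above 0, with a median log2 fold change of 0.28, against 5.23% of all genes passing as higher, and 3 rose in oxidized casein MR mice, against 3.35% of all genes. Mrpl12, a ribosomal protein that also binds the polymerase Polrmt, averaged 140 ± 27.3 CPM in elemental MR and 108 ± 30.6 CPM in elemental control mice, and 120 ± 26.2 CPM in oxidized casein MR and 70.1 ± 9.12 CPM in casein control mice. Over both it changed by 0.57 on the log2 scale (SE 0.12, adjusted p = 0.00314). Mterf4, which guides rRNA methylation and ribosome assembly, changed by 0.48 (SE 0.09, adjusted p = 0.00224). Fastkd1 passed with 0.46 (adjusted p = 0.0452), a call lost in 19 of the 24 fits that left out a library, with adjusted p of up to 0.113. The other 4 were Fastk, Ptcd3, Tbrg4 and Grsf1.

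Regulators of mitochondrial biogenesis split between a few large changes and many near 0. Of 16 tested, 5 rose over both sources and none fell, 9 were below 0, and the median was -0.04, against 5.23% of all genes passing as higher, while 3 rose in oxidized casein MR mice, against 3.35%. Perm1, a target and partner of PGC-1 and ERR known from striated muscle, had 3.50 to 7.96 CPM in elemental MR mice, against 0.393 to 6.40 CPM in elemental control mice, and 0.516 to 4.44 CPM in oxidized casein MR mice, against 0 to 0.534 CPM in casein control mice. Its log2 fold change over both was 1.98 (SE 0.44, adjusted p = 0.00534), and the highest elemental control value was that of the muscle-rich mouse 2. Between casein control and elemental control mice 1 of the 16 passed, Perm1 at -2.93 (SE 0.66, adjusted p = 0.0377), where 0.659% of all genes did. That call was lost in 14 of the 24 fits that left out a library, with adjusted p of up to 0.119, among them the fit without the muscle-rich elemental control mouse 2 (-2.33, adjusted p = 0.0637). Skeletal muscle markers had a median of -3.61 in the same comparison, with 0 of 8 above 0. In oxidized casein MR over casein control mice their median was 1.02, with 8 of 8 above 0. In elemental MR over elemental control mice it was -1.07, with 0 of 8 above 0. Their part in the values of Perm1 was not tested. Ppargc1b, a coactivator of mitochondrial genes, averaged 88.2 ± 24.1 CPM in elemental MR and 43.9 ± 18.9 CPM in elemental control mice, and 61.0 ± 16.3 CPM in oxidized casein MR and 28.3 ± 14.1 CPM in casein control mice, and its value over both on the log2 scale was 1.06 (SE 0.21, adjusted p = 0.00267). Its relative Ppargc1a changed by 0.73 (SE 0.15, adjusted p = 0.00335) and the nuclear receptor Esrra by 0.69 (SE 0.14, adjusted p = 0.00304). The receptor Ppara changed by 1.16 (SE 0.32, adjusted p = 0.0282) and did not pass without elemental MR mouse 4, elemental control mouse 5, oxidized casein MR mouse 1, casein control mouse 1 or casein control mouse 6, with adjusted p from 0.0505 to 0.0542. In oxidized casein MR mice the 3 were Perm1, Ppargc1b and Esrra, whose calls were lost in 3, 8 and 5 of the 24 fits that left out a library. Leaving out oxidized casein MR mouse 1, casein control mouse 1 or casein control mouse 6 ended each of the 3 calls, with adjusted p from 0.0536 to 0.105.

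**Figure D4:**
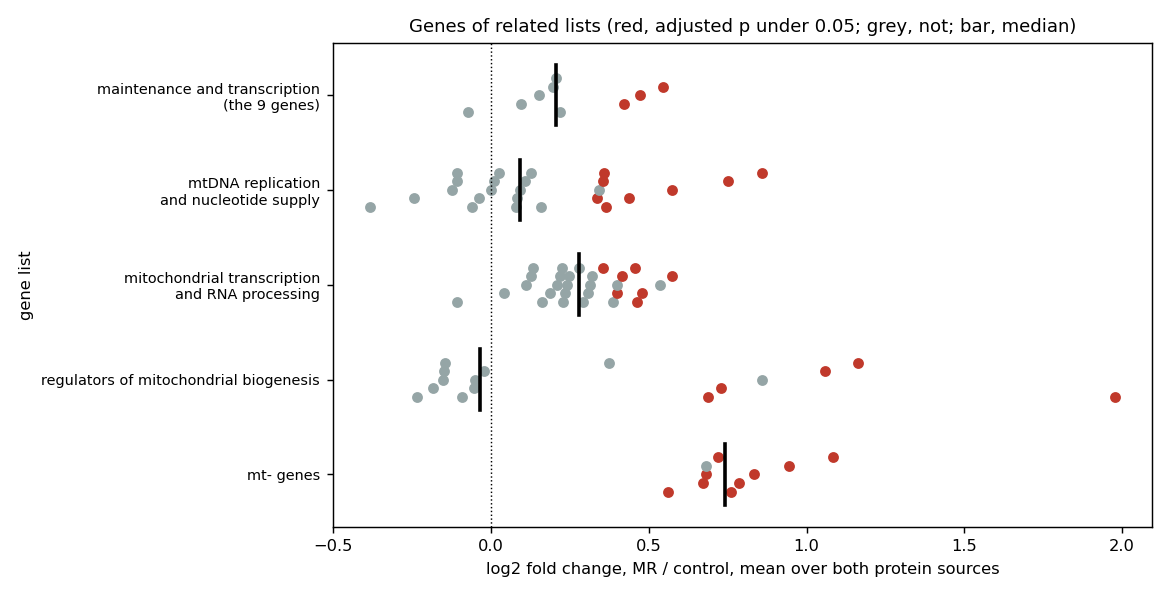
Log2 fold change of MR over control, as the mean of both protein sources, for each gene of 5 lists (points) and the list median (bar); red points passed an adjusted p of 0.05. The mt- genes lie highest with a median of 0.74, the 9 genes have a median of 0.20 with 3 red points, and the regulators have a median of -0.04 with 5 red points at 0.69 and above.

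Across all 24 libraries the levels of Polrmt, Tfb2m and Gabpa went together. As a description over libraries that share diets, Pearson's r of log2 CPM was 0.81 between Gabpa and Tfb2m, 0.77 between Polrmt and Tfb2m and 0.73 between Gabpa and Polrmt, whereas Nrf1 had r of 0.06 with Polrmt, -0.16 with Tfb2m and -0.07 with Gabpa. Among the 10715 genes whose log2 CPM averaged 2 or more, those most like Polrmt included Lgr6 (r = 0.95) and Clstn3 (r = 0.94). Those most like Tfb2m were Acadm (r = 0.92), Itprid2 (r = 0.91) and Atp5e (r = 0.91), and those most like Gabpa were Bcl7b (r = 0.85), Pih1d1 (r = 0.85) and Etfdh (r = 0.82). For the others the closest gene was Bcl2 for Nrf1 (r = 0.92), Hnrnpa2b1 for Ssbp1 (r = 0.87), Nop2 for Tfam (r = 0.86), Abhd10 for Tfb1m (r = 0.74), Mphosph9 for Polg (r = 0.73) and Mtif2 for Twnk (r = 0.65).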

How the data were processed

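RNA of inguinal fat from 24 mice was made into QuantSeq 3′ mRNA libraries and read as 50 bp single-end reads, per the labels' protocols. The deposited values are raw read counts per Ensembl gene and, in a second table, a normalized signal. That deposited signal equals the counts divided by 1 size factor per library (largest relative difference 5.33e-15), so only the counts were tested. R 3.4.3, DESeq2 1.18.1 and the builds GRCm38 and mm10 are named in the submitters' processing notes. Aligner, counter and strand use: not given in the sources used here. Listed genes had at least 72 reads in all.

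Genes were tested with edgeR 4.0.16 in R 4.3.3 (quasi-likelihood F test, robust, TMM scaling, filterByExpr, 1 mean per diet over 24 libraries), which left 15176 of 16821 genes, with Benjamini-Hochberg adjustment over all of them at 0.05. CPM values use the TMM library sizes. The share of mt- reads was compared by exact permutation of mice, adjusted over 6 comparisons. For the difference between the responses this p is approximate, because the shares differed between protein sources. Correlations used values centred on diet means and 100000 permutations within diets, and those with brown adipocyte markers were added after the data were seen. DESeq2 1.42.0 was an alternative. Tables were handled in Python 3.11.15 with numpy 2.4.6 and pandas 2.3.3. The edgeR and permutation steps were tested on simulated data.

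Each library carries its own mouse number, the closest libraries of a diet differed beyond counting noise (chi-square per degree of freedom at least 5.84), and no batch is given. Member genes held 15 to 576 reads per library, which limits the precision of the lowest. The 9 genes and all lists were chosen with earlier results of these data known. By rule, the text names the 9 genes, up to 3 genes with the largest change among those that passed in each related list and comparison, and genes most like each of the 9; markers and other genes of the lists were named after their values were seen.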

Additional observations from a re-analysis of the deposited data

Results flagged for a closer look

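In 6 of the 108 sets of 6 mice examined for a single library apart from the rest, the gap between 1 library and its nearest neighbour, as a share of the range, passed Dixon's critical value, where chance gives about 1 set in 20. Of the 9 genes, Tfb2m was highest in oxidized casein MR mouse 1 at 15.5 CPM, with a gap of 0.694 of the range, and Ssbp1 was lowest in casein control mouse 2 at 7.12 CPM, with a gap of 0.626. The same oxidized casein MR mouse 1 was highest for Grsf1 at 63.0 CPM (gap 0.765). Casein control mouse 6 was lowest for Mrpl12 at 53.1 CPM (gap 0.691). For mt-Nd3, elemental MR mouse 3 was lowest in its group at 17.5 CPM (gap 0.763) and casein control mouse 2 was lowest in its group at 0.766 CPM (gap 0.724). The cause was not tested.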

How the results depend on the processing

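No paired analysis was possible because the labels give the mice no replicate numbers shared between diets. The 3 calls over both protein sources kept their direction under every alternative run, but 0 of 9 genes passed within the libraries with lymph node transcripts and 0 within those without them, where fewer libraries were tested. Without the muscle-rich and albumin-rich libraries 2 of 9 passed over both sources, where 719 of 15218 genes did, and Tfb2m did not. In elemental MR mice 1 of the 7 genes with an adjusted p passed with DESeq2, where 218 of 9928 genes did. In oxidized casein MR mice 1 of 9 passed with RLE scaling, where 653 of 15176 genes did. With DESeq2 2 passed, where 918 of 13470 genes did. With the mt- genes left out 1 passed, where 653 of 14963 genes did. In a fit with a lymph node term 2 passed, where 1120 of 15176 genes did. Leaving out 1 library gave 0 to 1 of the 9 genes in elemental MR mice and 0 to 2 in oxidized casein MR mice. The counts over all genes for these fits are given in the next paragraph.

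Over all genes, DESeq2 called 218 in elemental MR mice, 918 in oxidized casein MR mice, 2 for the difference of the responses, 397 between the controls and 11 between the MR groups. In a fit with a lymph node term the counts were 166 in elemental MR mice, 1120 in oxidized casein MR mice, 1941 over both sources and 313 between the controls. Within libraries with lymph node transcripts they were 5, 5, 344 and 177, and within those without them 0, 172, 320 and 0. Without the muscle-rich and albumin-rich libraries elemental MR gave 1 gene. With only the 2 diets compared in the fit, elemental MR gave 23, oxidized casein MR 339 and the controls 2. Leaving out 1 library gave 7 to 252 genes in elemental MR mice, 316 to 825 in oxidized casein MR mice, 24 to 202 between the controls and 0 to 1 between the MR groups. The cause was not tested.

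The difference in mt- share kept its direction throughout. It missed the threshold in elemental MR mice at 4.66 points (with lymph node transcripts) and 5.78 (without the muscle-rich and albumin-rich libraries). Between the controls with lymph node transcripts, at -7.98 points, it missed it after adjustment (exact p = 0.0286, adjusted 0.0857). The same held over both sources without lymph node transcripts, at 11.2 points (exact p = 0.0222, adjusted 0.133). In each of these last comparisons the exact p was the smallest that the test could give with so few libraries. The exact test could not reach the threshold in elemental MR mice without lymph node transcripts (10.4), in oxidized casein MR mice with them (7.81) or without them (12.0), or between the controls without them (-6.19). Between the MR groups leaving out 1 library gave -6.51 to -3.87 points. The relation of Tfb2m to the share missed the threshold with only protein-coding mt- genes (r = 0.50) and with lymph node presence also centred out (r = 0.58). With lymph node presence centred out, r turned to -0.28 for Polg and -0.37 for Nrf1, and for Ssbp1 it turned to 0.022 both with only protein-coding mt- genes and without the 2 farthest libraries.

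The log2 fold changes that turned sign belonged to genes that passed no test in that comparison. In elemental MR mice they were, within libraries with lymph node transcripts, -0.028 for Twnk, -0.0025 for Tfb1m and -0.10 for Nrf1; with a lymph node term, -0.036 for Tfb1m and -0.069 for Nrf1; -0.049 for Ssbp1 without lymph node transcripts; and for Nrf1 -0.010 with no filter and -0.0038 without the muscle-rich and albumin-rich libraries. In oxidized casein MR mice Polg was at 0.0061 with the mt- genes left out, 0.036 with the term, 0.083 with and 0.015 without lymph node transcripts, and Nrf1 at 0.033 with the term and 0.21 without lymph node transcripts. Over both sources Nrf1 was at 0.17 without them. For the difference of the responses, Tfam was at 0.086 with the term, 0.32 with lymph node transcripts and 0.047 without the muscle-rich and albumin-rich libraries, Tfb2m at -0.038 with lymph node transcripts, and Nrf1 at 0.10 with the term, 0.040 with and 0.066 without lymph node transcripts. Between the controls Tfam was at 0.15 without them. Between the MR groups Tfam was at 0.019 with the term and 0.14 with lymph node transcripts, Polg at 0.031 and 0.070 under the same settings, Tfb1m at 0.16 with and Twnk at -0.044 without lymph node transcripts.

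Leaving out 1 library gave, in elemental MR mice, -0.10 to 0.10 for Twnk, -0.075 to 0.12 for Tfb1m and -0.081 to 0.14 for Nrf1, and in oxidized casein MR mice -0.057 to 0.024 for Polg. For the difference of the responses it gave -0.11 to 0.025 for Tfam, -0.0013 to 0.26 for Tfb2m and -0.14 to 0.20 for Ssbp1. Between the controls it gave -0.044 to 0.29 for Ssbp1, and between the MR groups -0.011 to 0.19 for Twnk, -0.090 to 0.024 for Polg and -0.048 to 0.14 for Nrf1. Twnk and Tfb1m had the fewest reads of the 9 genes.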
